A study of Homo sapiens with 12 samples.

Results

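The measurements below are of 10 genes that encode chromatin regulators: the coactivators EP300, CREBBP and NCOA6, the BAF remodeler subunits ARID1A, ARID1B and SMARCA4, the histone methyltransferases KMT2A, KMT2C and KMT2D, and the corepressor scaffold SIN3A. They were taken by gene name from a deposited table of 58884 genes, and all 10 were among the 16537 genes with enough counts to be tested. The 12 RNA-seq libraries came from HCC-LM3 METTL5 knockout cells, untreated HCC-LM3 wild-type cells, Huh-7 METTL5 knockout cells and untreated Huh-7 wild-type cells, with 3 libraries in each group. Knockout cells had been infected with a guide RNA (sgRNA) against METTL5, an enzyme that methylates an adenosine of 18S ribosomal RNA. Both lines come from hepatocellular carcinoma. No control guide is named in the labels, and neither are clones, separate cultures or batches, so loss of METTL5 cannot be told apart from guide infection or from clonal differences, and a p-value measures only the spread between libraries, which may be technical. The 10 names were proposed with knockout results of these libraries in view. Which values chose them is not recorded, so the Huh-7 knockout differences and the differences between the lines are given as a description without p-values. The HCC-LM3 knockout results may also have been in view, so the p-values of the 10 genes there are descriptive too.

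Transcription from chromatin depends on enzymes that add or remove marks on histones and on machines that move nucleosomes. EP300 and CREBBP acetylate histones at enhancers and promoters, KMT2 enzymes methylate lysine 4 of histone H3, and BAF complexes use the energy of ATP to slide or evict nucleosomes. SIN3A works in the opposite direction by holding histone deacetylases at the genes it represses. In liver cancer several of these genes, ARID1A above all, are known as targets of recurrent mutation. Such factors are encoded by long mRNAs.

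METTL5 itself had 0 counts in all 6 knockout libraries, against 268 to 327 counts in HCC-LM3 wild-type libraries and 169 to 258 counts in Huh-7 wild-type libraries. Against a floor of 3 counts in each library, this is at least 95.6-fold lower for HCC-LM3 and at least 29.3-fold lower for Huh-7. Library totals lay between 17495280 and 26415554 counts. The libraries differed in composition: genes with a deposited length over 6000 bases took 1.91% to 1.99% of protein-coding counts in Huh-7 knockout libraries, against 8.17% to 9.18% in Huh-7 wild-type libraries, and 11.1% to 11.8% in HCC-LM3 knockout libraries, against 10.3% to 12.2% in HCC-LM3 wild-type libraries. TMM, which rescales libraries so that most genes do not differ, gave factors of 0.491 to 0.51 in the Huh-7 knockout, against 1.06 to 1.10 in its wild type. In HCC-LM3 they were 1.27 to 1.31 in the knockout, against 1.33 to 1.51 in the wild type. HCC-LM3 wild-type replicate 1 stood apart from the other 2 libraries of its group. Summed over 10 hepatocyte markers, the level was 41.2 to 52.2 CPM (counts scaled to the same library total) in HCC-LM3 knockout and 40.2 to 44.8 CPM in HCC-LM3 wild-type libraries, with APOB, APOH and TTR at 0 in both groups. The same sum was 10114 to 10257 CPM in Huh-7 knockout and 14948 to 16596 CPM in Huh-7 wild-type libraries.

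Together the 10 genes made up a far smaller share of the Huh-7 knockout libraries than of any other. Their summed level was 40.6, 40.3 and 44.8 CPM of the library total in Huh-7 knockout libraries, against 765, 807 and 985 CPM in Huh-7 wild-type libraries. In HCC-LM3 the sums were 997, 956 and 895 CPM in knockout libraries, against 825, 980.1 and 985 CPM in wild-type libraries. The 2 groups of Huh-7 lay far apart, while the groups of HCC-LM3 overlapped.

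The 10 genes lie on 10 different chromosomes. Promoter windows of 250 bases before an annotated start were found in RefSeq (GRCh38.p14) for 9 of them, and NCOA6 had no entry. Only a single window was read for each gene, so other starts that a gene may have are not covered. Which start these cells use was not tested. For ARID1A and KMT2D the bases after the start were not found in a GENCODE transcript, while for the other genes with a window they were. Of the 3 windows printed here, SIN3A had the largest fall in the Huh-7 knockout, CREBBP a fall near the middle of the 10 and ARID1B the smallest. Capitals mark matches, on either strand, to a GC box, spelled GGGCGG, to the core of sites for ETS factors, spelled CCGGAAG, to the motif known as the CCAAT box, or to the promoter element called TATA box, spelled here as TATAAA. The SIN3A window is chr15:75455816-75456065 on the minus strand, the CREBBP window chr16:3880714-3880963 on the minus strand and the ARID1B window chr6:156775776-156776025 on the plus strand.
SIN3A: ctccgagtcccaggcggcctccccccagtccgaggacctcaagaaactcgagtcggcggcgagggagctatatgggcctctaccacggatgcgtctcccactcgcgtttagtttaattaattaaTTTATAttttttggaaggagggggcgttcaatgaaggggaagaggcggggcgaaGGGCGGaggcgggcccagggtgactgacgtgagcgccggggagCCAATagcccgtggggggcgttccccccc
CREBBP: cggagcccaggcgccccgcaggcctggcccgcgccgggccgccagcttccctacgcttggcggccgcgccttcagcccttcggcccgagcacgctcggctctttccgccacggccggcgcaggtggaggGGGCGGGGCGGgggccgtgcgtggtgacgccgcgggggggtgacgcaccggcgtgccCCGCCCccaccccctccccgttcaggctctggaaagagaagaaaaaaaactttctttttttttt
ARID1B: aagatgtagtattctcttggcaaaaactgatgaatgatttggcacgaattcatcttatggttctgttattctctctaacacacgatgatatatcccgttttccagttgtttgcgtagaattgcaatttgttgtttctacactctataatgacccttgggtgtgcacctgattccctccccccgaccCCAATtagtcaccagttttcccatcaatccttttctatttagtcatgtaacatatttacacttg

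The SIN3A window holds 1 GC box, 1 CCAAT box and 1 TATA box. In the CREBBP window 3 GC boxes were found, 2 of which share bases, and in the ARID1B window 1 CCAAT box. Over the 9 windows, 7 held a GC box, against 42.6% of the 35114 promoters in the table, 2 held a CCAAT box (32.0% of all promoters) and 1 held a TATA box (10.7%). None held the ETS core, which was in 8.52% of all promoters. GC content was 62.0% in the SIN3A window, 72.4% in the CREBBP window and 38.8% in the ARID1B window, with a median of 76.8% over the 9 windows and 58.0% over all promoters. A match describes these letters only.

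In untreated cells the 10 genes were spread over a wide range of levels, and SMARCA4 was the highest in both lines. On the scale of the deposited TPM values, which are corrected for transcript length and for library size, SMARCA4 averaged 56.4 ± 1.93 TPM in HCC-LM3 wild-type and 65.5 ± 2.36 TPM in Huh-7 wild-type cells (SD, n = 3 each). KMT2D followed with 32.2 ± 2.42 TPM in HCC-LM3 and 25.6 ± 4.29 TPM in Huh-7 wild-type cells, then ARID1A with 22.2 ± 2.96 TPM in HCC-LM3 and 13.7 ± 1.73 TPM in Huh-7 wild-type cells. KMT2C was the lowest in both lines, at 4.59 ± 0.591 TPM in HCC-LM3 and 4.71 ± 0.515 TPM in Huh-7 wild-type cells. Between these ends the order was NCOA6, CREBBP, SIN3A, EP300, KMT2A and ARID1B in HCC-LM3, and each neighbour in that run overlapped the next. In Huh-7 the order after ARID1A was EP300, NCOA6, ARID1B, CREBBP, SIN3A and KMT2A, and among these NCOA6 and ARID1B were the only neighbours whose libraries did not overlap.

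In Huh-7 knockout libraries the order was different and the levels were low. SMARCA4 stayed on top with 4.35 ± 0.558 TPM, ARID1B came next with 2.09 ± 0.441 TPM, and KMT2D and NCOA6 overlapped at 0.937 ± 0.178 TPM and 0.903 ± 0.199 TPM (SD, n = 3 each). EP300, CREBBP, ARID1A and KMT2A lay between 0.513 and 0.183 TPM on average, and KMT2C and SIN3A were lowest at 0.0733 ± 0.0379 TPM and 0.0667 ± 0.0473 TPM. By these means ARID1B ranked 2 of 10 in the Huh-7 knockout, against 6 in its wild type, and ARID1A ranked 7 in the Huh-7 knockout, against 3 in its wild type. The knockout rank of ARID1B rests on 53 to 63 counts a library, which the TPM took from much shorter transcripts than in the wild type.

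**Figure D1:**
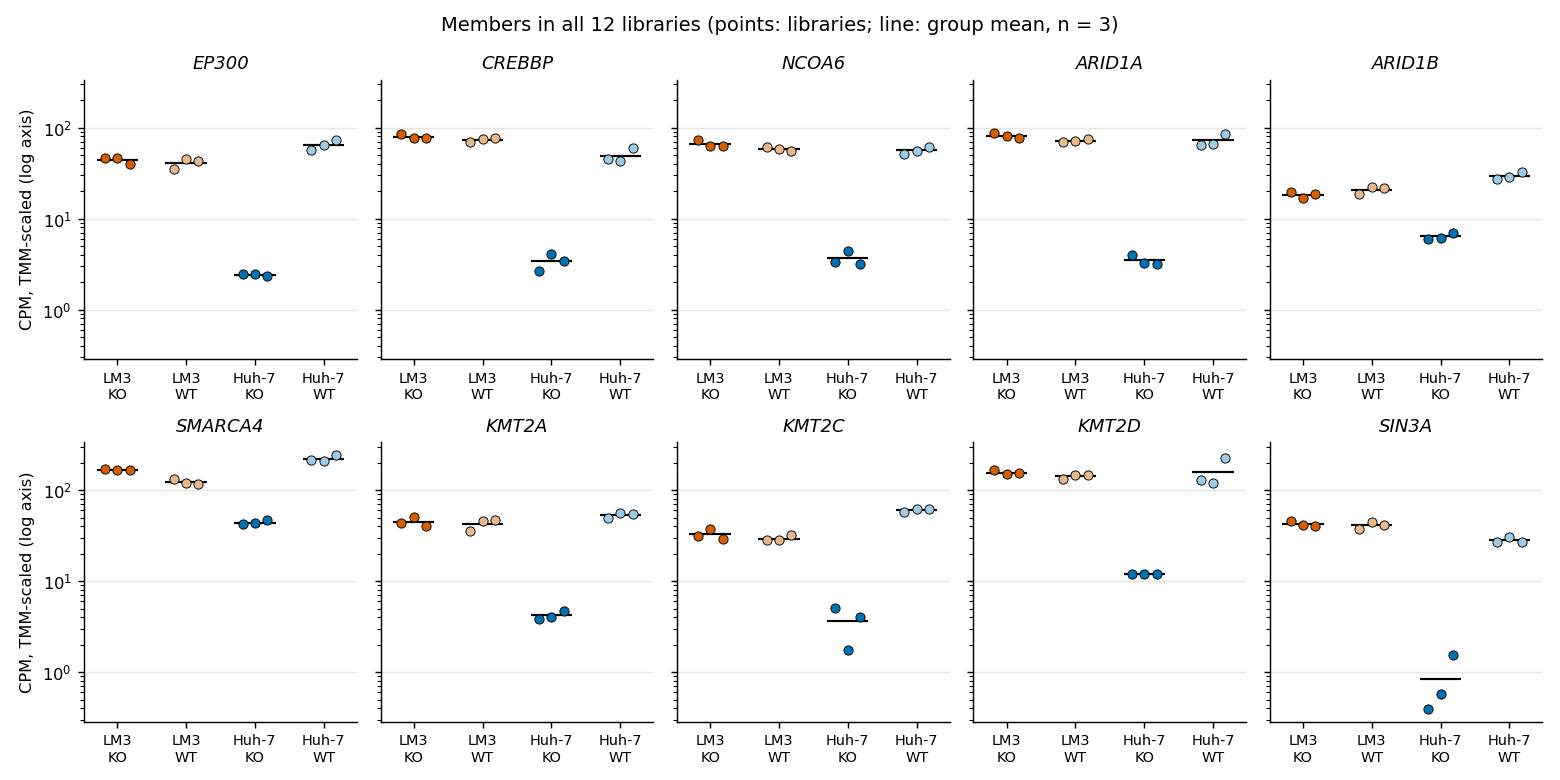
TMM-scaled CPM (log axis) of the 10 genes in each library of the 4 groups (LM3 is HCC-LM3, KO is METTL5 knockout, WT is wild type), with points for libraries and a line for the mean of 3. In all 10 genes every Huh-7 knockout point lies below every Huh-7 wild-type point, as in 44.2% of all tested genes, from SIN3A at 0.394 to 1.54 against 26.7 to 30.5 CPM to SMARCA4 at 42.1 to 46.6 against 209.6 to 243 CPM.

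EP300 and CREBBP, paralogous acetyltransferases of histones and other proteins, were both strongly reduced in the Huh-7 knockout. EP300 (chr22:41091786-41180079, plus strand, GRCh38) was at 2.46, 2.45 and 2.31 TMM-scaled CPM in Huh-7 knockout libraries, which stood for only 25, 21 and 21 counts, against 56.1, 63.9 and 73.0 CPM in Huh-7 wild-type libraries. Its log2 fold change was −4.74 (SE 0.163), or 26.6-fold lower. CREBBP (chr16:3725054-3880726, minus strand) was at 2.66, 4.08 and 3.41 CPM in Huh-7 knockout libraries, against 44.9, 42.5 and 59.9 CPM in Huh-7 wild-type libraries, a log2 fold change of −3.87 (SE 0.161). The knockout libraries of both genes lay close together and far below all wild-type libraries.

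In HCC-LM3 neither acetyltransferase passed the test. EP300 was at 45.8, 46.3 and 40.1 CPM in knockout libraries, against 35.3, 44.6 and 42.6 CPM in wild-type libraries, and the groups overlapped (log2 fold change 0.11, edgeR adjusted p = 0.479). CREBBP was at 85.3, 77.1 and 76.2 CPM in knockout libraries, against 69.8, 75.1 and 75.9 CPM in wild-type libraries; the groups did not overlap, but the log2 fold change of 0.11 did not pass (edgeR adjusted p = 0.465). The balance of the pair differed little within HCC-LM3, where the ratio of EP300 to CREBBP counts was 0.555 ± 0.0405 in HCC-LM3 knockout and 0.554 ± 0.0451 in HCC-LM3 wild-type libraries (SD, n = 3 each). In Huh-7 it was 0.734 ± 0.17 in knockout libraries and 1.32 ± 0.154 in wild-type libraries, with no overlap between them, but the knockout ratio rests on 21 to 35 counts a gene. On the deposited TPM scale the groups overlapped, with ratios of 2.48, 2.38 and 0.651 in Huh-7 knockout libraries, against 1.72, 2.81 and 1.27 in Huh-7 wild-type libraries, so a shift in the balance was seen in counts and not in TPM. Ratios of counts are not of levels per length and can be compared between groups only.

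NCOA6, a coactivator of nuclear receptors that sits in the same complexes as KMT2C and KMT2D, followed the acetyltransferases. NCOA6 (chr20:34689097-34825649, minus strand) was at 3.35, 4.43 and 3.19 CPM in Huh-7 knockout libraries, against 51.6, 55.3 and 61.4 CPM in Huh-7 wild-type libraries. The groups were well separated, with a log2 fold change of −3.95 (SE 0.142). In HCC-LM3 it was at 72.4, 63.4 and 62.4 CPM in knockout libraries, against 60.5, 58.6 and 55.4 CPM in wild-type libraries. All 3 knockout libraries were above all wild-type libraries, but the log2 fold change of 0.18 did not pass (edgeR adjusted p = 0.156). The NCOA6 gene overlaps PIGU and TP53INP2, and with no strand setting given, reads of overlapping genes on opposite strands cannot be told apart.

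Among the BAF subunits, ARID1A and ARID1B, the alternative DNA-binding subunits of the canonical complex, fell by very different amounts in the Huh-7 knockout. ARID1A (chr1:26693236-26782110, plus strand) was at 3.94, 3.26 and 3.19 CPM in Huh-7 knockout libraries, against 65.0, 66.5 and 84.9 CPM in Huh-7 wild-type libraries, a log2 fold change of −4.37 (SE 0.147). ARID1B (chr6:156776020-157210779, plus strand) was at 6.01, 6.18 and 6.92 CPM in Huh-7 knockout libraries, against 27.5, 28.8 and 32.7 CPM in Huh-7 wild-type libraries, a log2 fold change of −2.22 (SE 0.143). ARID1A was thus 20.7-fold lower and ARID1B 4.65-fold lower, and the counts of the pair changed places. The ratio of ARID1A to ARID1B counts was 0.548 ± 0.0975 in Huh-7 knockout libraries and 2.42 ± 0.149 in Huh-7 wild-type libraries (SD, n = 3 each). The TPM ratio went the same way, at 0.102 to 0.176 in Huh-7 knockout libraries, against 2.09 to 2.27 in Huh-7 wild-type libraries. The Huh-7 knockout ratios rest on 28 to 40 counts of ARID1A and 53 to 63 of ARID1B. There the ARID1B TPM took a transcript length, implied as described below, of 786 to 1416 bases, against 4813 to 5033 in the wild type. A shorter length raises a TPM, so the TPM ratio is not separate support.

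In HCC-LM3 the ratio of ARID1A to ARID1B counts was 4.47 ± 0.353 in knockout and 3.47 ± 0.265 in wild-type libraries (SD, n = 3 each). Its lowest knockout value of 4.09 was above its highest wild-type value of 3.73, while on the TPM scale the ratio overlapped, at 3.01 to 4.77 in knockout and 3.12 to 3.55 in wild-type libraries. ARID1A was at 87.8, 79.7 and 77.0 CPM in knockout libraries, against 68.6, 71.4 and 75.7 CPM in wild-type libraries, and ARID1B at 19.5, 16.6 and 18.8 CPM in knockout libraries, against 18.4, 22.3 and 21.7 CPM in wild-type libraries. ARID1A groups did not overlap and ARID1B groups did. Neither passed the test (log2 fold change 0.18 with edgeR adjusted p = 0.175 for ARID1A, and −0.19 with edgeR adjusted p = 0.241 for ARID1B). ARID1B was called lower once HCC-LM3 wild-type replicate 1 was left out (−0.27, edgeR adjusted p = 0.0442), with library totals (−0.35, edgeR adjusted p = 0.0436) and with GC and length offsets (−0.39, edgeR adjusted p = 0.00297), which called 8.85% of all tested genes lower.

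**Figure D2:**
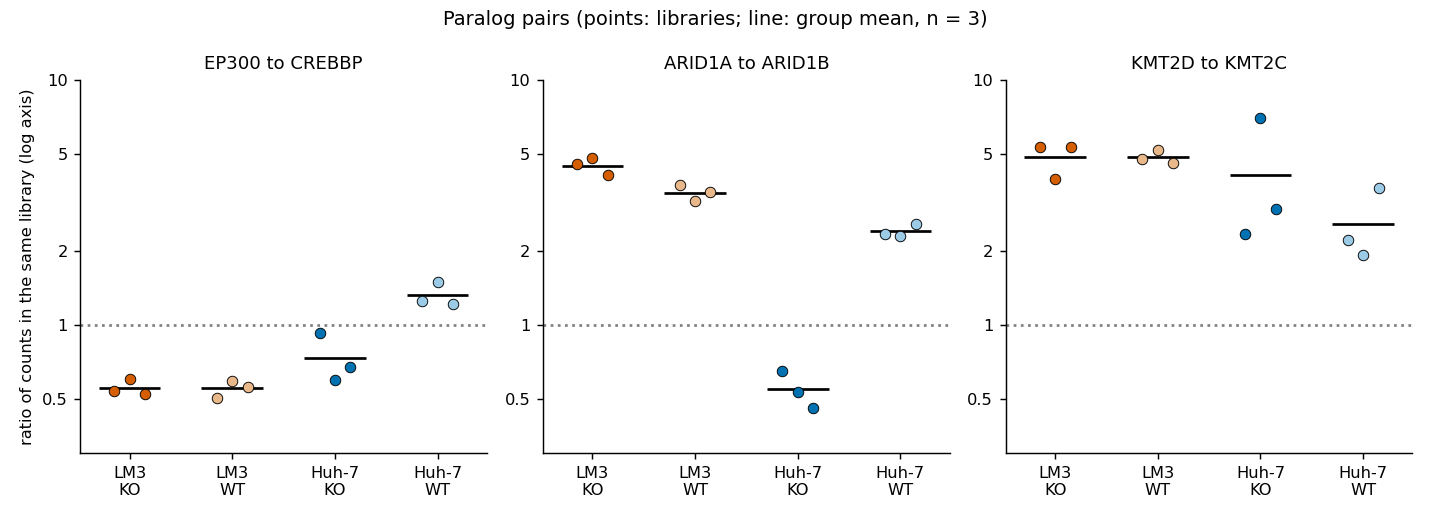
Ratio of counts within each library (log axis) for 3 pairs of related genes in the 4 groups, with points for libraries, a line for the mean of 3 and a dotted line where both counts are equal. ARID1A to ARID1B lies between 0.46 and 0.653 in the Huh-7 knockout, below 1, and between 2.31 and 4.79 in the other groups.

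SMARCA4, the ATPase that drives BAF complexes, had the highest mean level of the 10 in each group on the deposited TPM scale. SMARCA4 (chr19:10960825-11079426, plus strand) was at 42.1, 43.1 and 46.6 CPM in Huh-7 knockout libraries, against 215, 209.6 and 243 CPM in Huh-7 wild-type libraries. These were 427, 370 and 424 counts in the knockout, against 5874, 4788 and 4804 counts in the wild type. Its log2 fold change of −2.34 (SE 0.0998), or 5.07-fold lower, was smaller in size than that of every other gene but ARID1B. On the deposited TPM scale the gap was wider, at 4.35 ± 0.558 TPM in knockout and 65.5 ± 2.36 TPM in wild-type libraries (SD, n = 3 each).

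SMARCA4 was also the one gene of the 10 that passed the test in HCC-LM3, where 26.8% of all tested genes passed it. It was at 169, 166 and 168 CPM in HCC-LM3 knockout libraries, against 133, 119.8 and 116 CPM in HCC-LM3 wild-type libraries. The knockout values were tightly grouped and all above the wild type, with a log2 fold change of 0.45 (SE 0.0904, edgeR adjusted p = 0.000395). With GC and length offsets the call ended (0.11, edgeR adjusted p = 0.241). Mean GC content of the counts was 53.2% to 53.3% in HCC-LM3 knockout libraries, against 52.1% to 52.7% in wild-type libraries. SMARCA4 transcripts had the highest GC content of the 10 genes, at 61.4%.

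SMARCA2, the alternative ATPase that can take the place of SMARCA4 in BAF complexes, was nearly silent in Huh-7. It had 0, 0 and 0 counts in Huh-7 knockout libraries and 3, 4 and 3 counts in Huh-7 wild-type libraries, too few for a fold change. HCC-LM3 had 517, 569 and 487 counts in knockout libraries and 486, 708 and 597 counts in wild-type libraries. SMARCA2 was singled out after its values were seen.

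The 3 methyltransferases of lysine 4 of histone H3 fell to similar extents in the Huh-7 knockout. KMT2A (chr11:118436464-118526832, plus strand), known for its rearrangements in leukaemia, was at 3.84, 4.08 and 4.73 CPM in Huh-7 knockout libraries, against 49.3, 56.2 and 55.2 CPM in Huh-7 wild-type libraries (log2 fold change −3.67, SE 0.153). KMT2C (chr7:152134922-152436005, minus strand), an enhancer methyltransferase, was at 5.13, 1.75 and 4.07 CPM in Huh-7 knockout libraries, against 57.8, 61.4 and 62.2 CPM in Huh-7 wild-type libraries (log2 fold change −4.02, SE 0.185). KMT2D (chr12:49018975-49059774, minus strand), its paralogue, was at 12.1, 12.1 and 12 CPM in Huh-7 knockout libraries, against 128, 119 and 226 CPM in Huh-7 wild-type libraries (log2 fold change −3.70, SE 0.253). No knockout library reached any wild-type library, and within the wild type KMT2D was far higher in replicate 3. KMT2C had 52, 15 and 37 counts in the knockout, so the ratio of KMT2D to KMT2C counts spread from 2.35 to 6.96 there, against 1.93 to 3.63 in Huh-7 wild-type libraries, and the groups overlapped. On the TPM scale they did not, at 9.0 to 28.7 in Huh-7 knockout libraries, against 5.05 to 5.8 in Huh-7 wild-type libraries. The knockout TPM of KMT2C was only 0.09, 0.03 and 0.1. KMT2D took an implied transcript length of 3605 to 4931 bases there, against 5349 to 7565 in the wild type, and a shorter length raises a TPM. A shift in the balance of the pair is therefore not read from the TPM ratio.

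In HCC-LM3 the 3 methyltransferases did not pass the test. KMT2A was at 43.1, 50.6 and 40.0 CPM in knockout libraries, against 35.6, 45.7 and 47.3 CPM in wild-type libraries (log2 fold change 0.05, edgeR adjusted p = 0.768). KMT2C was at 31.4, 37.8 and 28.9 CPM in knockout libraries, against 28.1, 28.4 and 31.9 CPM in wild-type libraries (log2 fold change 0.15, edgeR adjusted p = 0.444). KMT2D was at 166, 149 and 154 CPM in knockout libraries, against 134, 147 and 146 CPM in wild-type libraries (log2 fold change 0.14, edgeR adjusted p = 0.677). KMT2A and KMT2C overlapped between the groups, and KMT2D did not. With GC and length offsets KMT2D turned to −0.22 (edgeR adjusted p = 0.0222). The ratio of KMT2D to KMT2C counts was 4.86 ± 0.791 in HCC-LM3 knockout and 4.83 ± 0.307 in HCC-LM3 wild-type libraries (SD, n = 3 each).

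SIN3A, the scaffold of a histone deacetylase complex, had the largest fall of the 10. SIN3A (chr15:75369379-75455842, minus strand) was at 0.394, 0.583 and 1.54 CPM in Huh-7 knockout libraries, against 26.7, 30.5 and 27.0 CPM in Huh-7 wild-type libraries. These were 4, 5 and 14 counts in the knockout, against 729, 696 and 533 counts in the wild type, so the knockout level is close to the floor of 3 counts. The log2 fold change was −5.07 (SE 0.22), or 33.7-fold lower. In HCC-LM3 SIN3A was at 45.5, 41.3 and 40.2 CPM in knockout libraries, against 37.4, 45.0 and 41.8 CPM in wild-type libraries, with overlap and a log2 fold change of 0.03 (edgeR adjusted p = 0.898).

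Taking each comparison across the whole table, 10 of the 10 genes were called lower in the Huh-7 knockout, where 43.2% of all tested genes were called lower and 75.0% in either direction (edgeR, adjusted p under 0.05). Because the names may have been chosen on this contrast, nothing is read from that count. Library totals in place of TMM moved the median of all genes by −1.1 in the Huh-7 knockout and by −0.12 in the HCC-LM3 knockout on the log2 scale. The median log2 fold change of the 10 was −3.91, with −0.30 for all tested genes, on the TMM scale. In the HCC-LM3 knockout 1 of the 10 was called higher and 0 lower, where 14.0% of all tested genes were called higher and 12.9% lower. At an unadjusted p under 0.05 edgeR likewise gave 1 higher and 0 lower, and DESeq2 and limma-voom each called 1 higher and 0 lower after adjustment. The median of the 10 was 0.13, with 0.00 for all genes. On the TMM scale every HCC-LM3 knockout library was above every wild-type library in 5 of the 10 (CREBBP, NCOA6, ARID1A, SMARCA4 and KMT2D), as in 20.5% of all tested genes. Scaled by library totals, the groups overlapped in CREBBP, NCOA6, ARID1A and KMT2D and stayed apart in SMARCA4, so the count depended on the scaling. The difference between the lines, HCC-LM3 effect minus Huh-7 effect, was called higher in 10 of 10 genes, where 61.6% of all tested genes were called in either direction and 37.7% higher, at a median of 4.05 for the 10 and 0.39 for all genes, and nothing is read from that count either. The difference between the lines uses the same libraries as the knockout comparisons, so it is not independent of them.

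**Figure D3:**
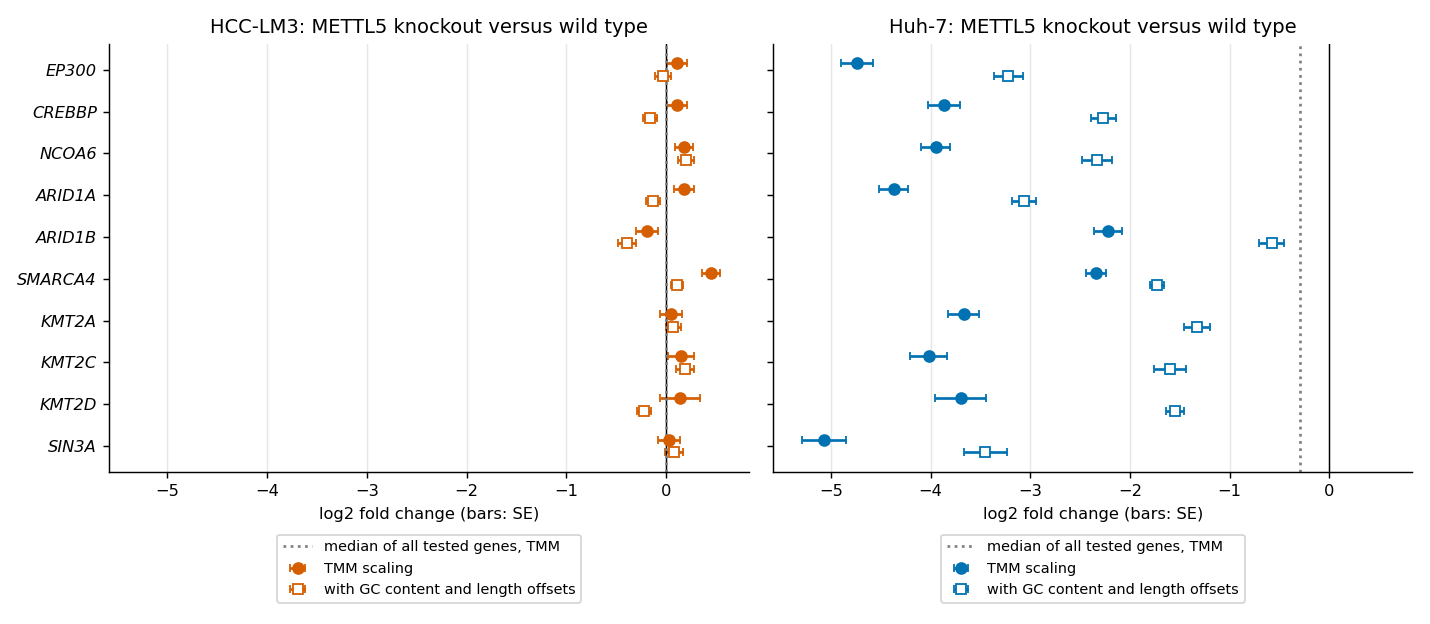
Log2 fold change of each gene, knockout over wild type, in HCC-LM3 and in Huh-7 (bars: SE; filled circles: TMM scaling; open squares: with GC and length offsets; dotted line: median of all 16537 tested genes). In HCC-LM3 the 10 genes lie between −0.19 and 0.45, and in Huh-7 between −5.07 and −2.22, or −3.45 and −0.58 with the offsets.

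Gene length moved with the Huh-7 knockout differences over the whole table, and the 10 genes are long, from 5512 bases for SMARCA4 to 19419 bases for KMT2D in the deposited table. Genes of up to 1000 bases had a median log2 fold change of 1.42 in the Huh-7 knockout, those over 4000 and up to 6000 bases −1.42, and those over 12000 bases −2.48. In the last class 84.0% of genes were called lower. The same classes had medians between −0.08 and 0.06 in the HCC-LM3 knockout. Within its own length class ARID1B alone of the 10 was near the middle, at −2.22 with 52.8% of the genes of its class below it. SMARCA4, at −2.34, had 22.4% of its class below it. The other genes lay near the lower end of their classes, with 1.28% of the class below SIN3A, 2.02% below EP300, 3.36% below ARID1A, 3.85% below NCOA6, 5.38% below CREBBP, 6.46% below KMT2C, 9.89% below KMT2D and 10.6% below KMT2A. Names chosen on this contrast would lie low in their classes, so these positions are a description only.

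With per-library offsets for GC content and gene length, all 10 genes were still lower in the Huh-7 knockout, by less. Since the names may have been chosen on this contrast, a fall beyond that of length is not read from these values. The log2 fold changes with offsets were −3.45 for SIN3A, −3.22 for EP300, −3.06 for ARID1A, −2.33 for NCOA6, −2.27 for CREBBP, −1.73 for SMARCA4, −1.60 for KMT2C, −1.55 for KMT2D, −1.33 for KMT2A and −0.58 for ARID1B. Their median was −2.0, with 0.06 for all tested genes, of which 24.9% were called lower. KMT2A, KMT2C and KMT2D, the longest of the 10, were moved further by the offsets than SMARCA4, the shortest. The difference between the lines ended for ARID1B with offsets, at 0.19, and was called for the other 9 of the 10, where 20.6% of all tested genes were called higher. In bulk libraries fewer cells with a transcript and less of it per cell cannot be told apart, and what made long genes lower was not tested.

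**Figure D4:**
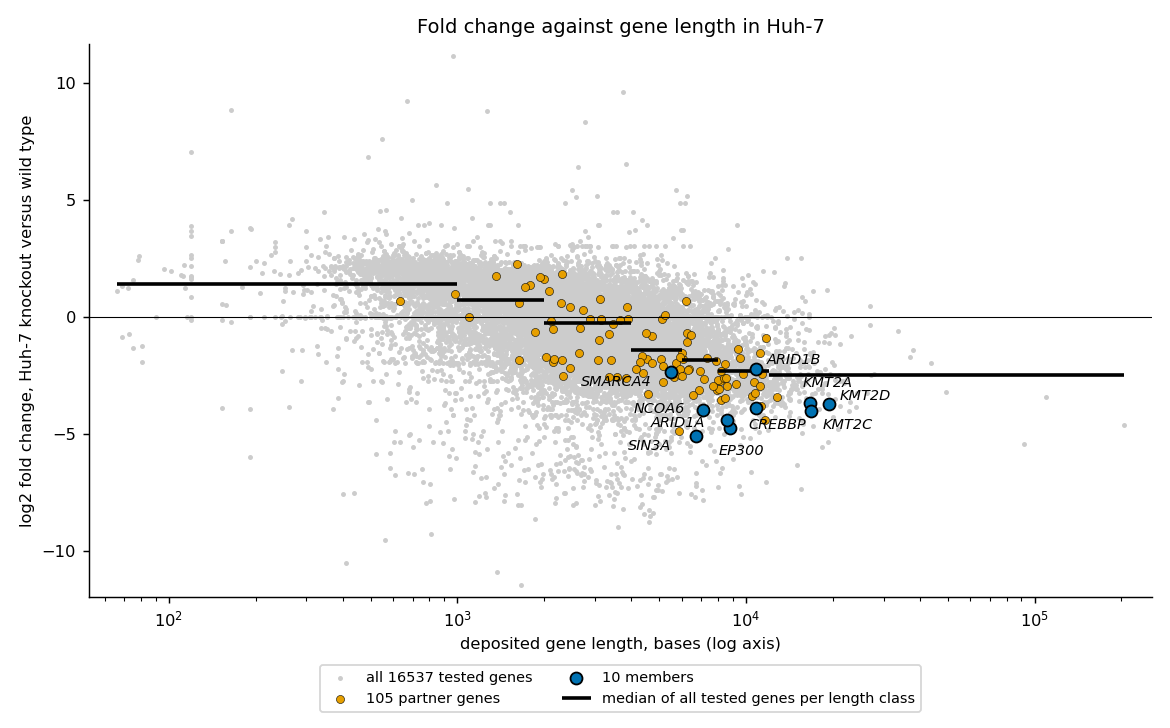
Log2 fold change in Huh-7, METTL5 knockout over wild type, against deposited gene length in bases (log axis) for 16537 tested genes (grey), 105 genes of the same complexes (orange) and the 10 genes (blue, named); black lines are medians per length class. The medians fall from 1.42 in the shortest class to −2.48 in the longest, with ARID1B near its class median and SIN3A, EP300 and ARID1A well below theirs.

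Counts and TPM together carry a sign of which part of a gene's transcripts the authors' estimate assigned the reads to, since a TPM divides the count by transcript length. The length so implied was calibrated on genes with a single transcript. It is given for the 4 genes with the highest mean TPM in the Huh-7 knockout. For a given count a higher TPM means a shorter implied length, so this choice favours short lengths in that group. NCOA6 had implied lengths of 1627, 1356 and 1122 bases in Huh-7 knockout libraries, against 5630, 5281 and 6641 bases in Huh-7 wild-type libraries. ARID1B had 972, 786 and 1416 bases in Huh-7 knockout libraries, against 4813, 5033 and 4844 bases in Huh-7 wild-type libraries. For these genes the knockout reads were assigned to much shorter transcripts, and the groups were far apart. SMARCA4 overlapped between the groups, with 3745, 2977 and 3422 bases in Huh-7 knockout libraries, against 3463, 3334 and 3687 bases in Huh-7 wild-type libraries. KMT2D was at 4931, 4589 and 3605 bases in knockout libraries, against 5679, 5349 and 7565 bases in wild-type libraries, lower without overlap. On few counts, EP300 and SIN3A were also shorter in the Huh-7 knockout without overlap, while ARID1A, CREBBP, KMT2A and KMT2C overlapped. In HCC-LM3 NCOA6 lay at 7153, 6515 and 6138 bases in knockout libraries, against 6443, 6949 and 6699 bases in wild-type libraries, with overlap. The knockout estimates for NCOA6 and ARID1B rest on 29 to 63 counts a library, so the split between transcripts is uncertain, and its cause was not tested.

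**Figure D5:**
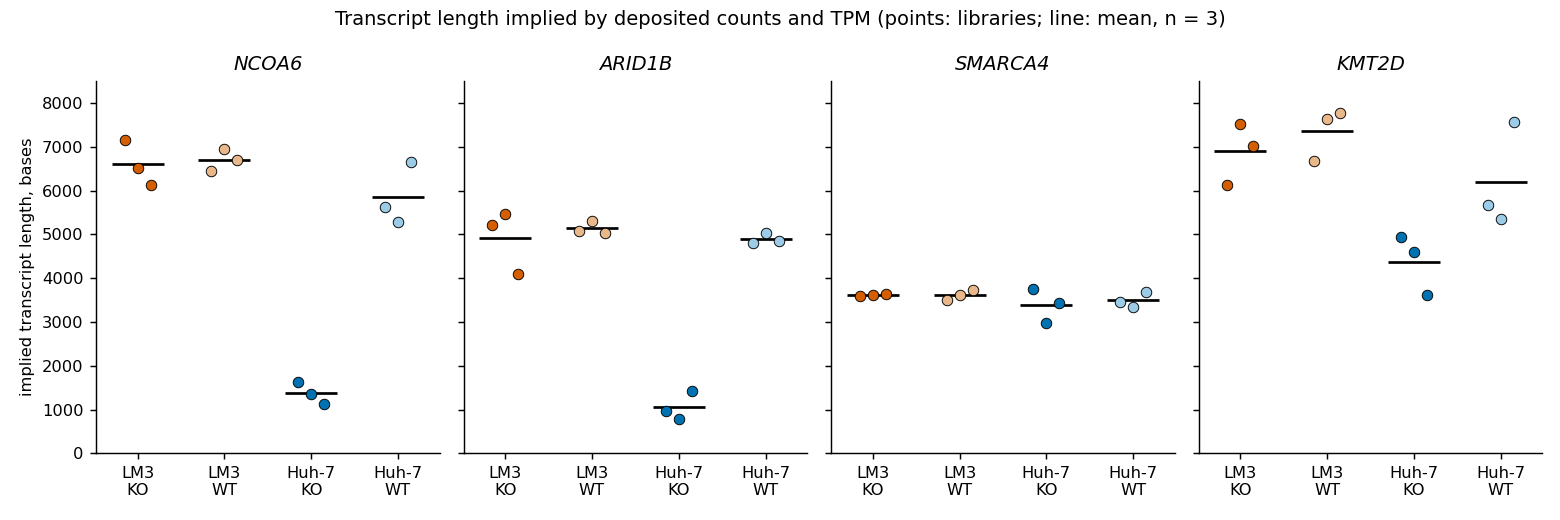
Transcript length in bases implied by the deposited counts and TPM for NCOA6, ARID1B, SMARCA4 and KMT2D in each library of the 4 groups, with points for libraries and a line for the mean of 3. NCOA6 lies at 1122 to 1627 bases and ARID1B at 786 to 1416 bases in the Huh-7 knockout, below every other group, while SMARCA4 lies between 2977 and 3745 bases in all 4.

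Between the untreated lines 7 of the 10 genes were called, where 82.8% of all tested genes were, so the share among the 10 was not above that of the table. HCC-LM3 wild-type relative to Huh-7 wild-type cells had lower KMT2C (log2 fold change −1.04, SE 0.13, edgeR adjusted p = 6.91e-08), SMARCA4 (−0.86, SE 0.0909, edgeR adjusted p = 2.07e-10), EP300 (−0.65, edgeR adjusted p = 8.53e-07), ARID1B (−0.51, edgeR adjusted p = 0.000133) and KMT2A (−0.32, edgeR adjusted p = 0.00742). CREBBP (0.59, SE 0.106, edgeR adjusted p = 7.07e-06) and SIN3A (0.56, SE 0.115, edgeR adjusted p = 4.2e-05) were higher. NCOA6, ARID1A and KMT2D did not pass, at 0.05, −0.00 and −0.15 (edgeR adjusted p = 0.612, 0.984 and 0.508). So 2 of 10 were called higher and 5 lower with TMM, where 41.8% of all tested genes were called higher and 41.0% lower. This balance turned with the scale. Library totals gave 4 higher and 2 lower (51.0% and 32.8% of all tested genes), and log2(TPM + 1) with limma gave 6 higher and 1 lower (55.3% and 27.5%). The offsets gave 1 higher and 6 lower (44.1% and 38.7%).

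The calls of single genes depended on the scale in the same way, since library totals alone moved all genes by 0.42 on the log2 scale relative to TMM. SMARCA4 and SIN3A kept their calls with library totals, with the offsets and on log2(TPM + 1). KMT2C kept its call with library totals and with the offsets, but on log2(TPM + 1) its difference was −0.03 (limma adjusted p = 0.819). The call of CREBBP ended with the offsets (0.00, edgeR adjusted p = 0.977). The call of EP300 ended with library totals (−0.22, edgeR adjusted p = 0.0916) and on log2(TPM + 1) (−0.21, limma adjusted p = 0.423), and that of ARID1B ended with library totals (−0.08, edgeR adjusted p = 0.559) and on log2(TPM + 1) (0.10, limma adjusted p = 0.576).

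The call of KMT2A depended on several settings. It ended with the offsets (−0.13, edgeR adjusted p = 0.119), with library totals (0.11, edgeR adjusted p = 0.43), with no filter (−0.23, edgeR adjusted p = 0.0683) and with the replicate block (−0.35, edgeR adjusted p = 0.0504). It also ended without HCC-LM3 wild-type replicate 1 (−0.15, edgeR adjusted p = 0.158) or without Huh-7 wild-type replicate 2 (−0.24, edgeR adjusted p = 0.0631), and on log2(TPM + 1) KMT2A was called higher (0.43, limma adjusted p = 0.0457). Genes without a call gained one elsewhere. ARID1A was called lower with the offsets (−0.46, edgeR adjusted p = 8.17e-07), but higher with library totals (0.42, edgeR adjusted p = 0.000799) and on log2(TPM + 1) (0.66, limma adjusted p = 0.00046). NCOA6 was called higher with library totals (0.47, edgeR adjusted p = 6.88e-05) and on log2(TPM + 1) (0.50, limma adjusted p = 0.000558). KMT2D was called lower with the offsets (−1.50, edgeR adjusted p = 6.35e-17) and higher on log2(TPM + 1) (0.33, limma adjusted p = 0.0413).

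The other subunits and partners of these complexes were read from 6 lists with 105 genes, all of which were tested. In the Huh-7 knockout 16 of the 105 rose and 78 fell (edgeR, adjusted p under 0.05), with a median log2 fold change of −1.81, where 31.7% of all tested genes were called higher and 43.2% lower. With the offsets 24 rose and 55 fell, where 34.3% of all tested genes were called higher and 24.9% lower. Their direction followed length: of 12 partner genes of up to 2000 bases 8 rose and 2 fell, and of 41 over 6000 bases 1 rose and 40 fell. Over all tested genes, classes up to 2000 bases had 52.9% to 64.2% called higher and 8.86% to 20.4% lower. Classes over 6000 bases had 3.04% to 6.42% called higher and 78.1% to 84.0% lower. In the HCC-LM3 knockout 19 rose and 17 fell, with a median of 0.02, close to the 14.0% of all tested genes called higher and 12.9% called lower. With the offsets 10 rose and 6 fell there, where 9.14% and 8.85% of all tested genes were called higher and lower.

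Of 14 other acetyltransferases and acetyl-lysine readers, 3 rose and 11 fell in the Huh-7 knockout (31.7% and 43.2% of all tested genes). KAT8, which acetylates histone H4, rose by 1.37 on the log2 scale to 77.3 ± 1.85 CPM in knockout libraries, against 29.8 ± 0.777 CPM in wild-type libraries (SD, n = 3 each). KAT5, the catalytic subunit of the TIP60 complex, rose by 1.12, but only by 0.49 with the offsets, and its call ended with library totals (edgeR adjusted p = 0.898). KAT6A and KAT6B, long paralogues of the MYST family, fell, with log2 fold changes of −2.85 and −3.53, or −0.84 and −1.62 with the offsets. Among 15 nuclear receptor coactivators and Mediator subunits, edgeR called 0 higher and 14 lower (0 higher at an unadjusted p under 0.05, and 1 higher by DESeq2), where 43.2% of all tested genes were called lower. With the offsets 3 were called higher and 11 lower (34.3% and 24.9% of all tested genes). NCOA2 and MED13 led the fall at −3.44 and −3.38, or −1.39 and −1.05 with the offsets. The HCC-LM3 knockout had other changes there: MED24 and MED15, Mediator tail subunits, rose by 0.62 and 0.47, while CCNC, the cyclin of the Mediator kinase module, and MED14, the Mediator backbone, had log2 fold changes of −0.84 and −0.53 and were called lower. The call of MED15 ended with the replicate block and the offsets together, and that of MED14 on log2(TPM + 1).

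Of 23 other BAF and PBAF subunits, 6 rose and 14 fell in the Huh-7 knockout (31.7% and 43.2% of all tested genes). The 14 include SMARCA2, which had only 0 to 4 counts a library in Huh-7 and whose call ended with the offsets. The short BCL7C and SMARCD3, accessory subunits, rose by 2.28 and 1.64, or by 1.29 and 1.2 with the offsets, and the call of SMARCD3 ended on log2(TPM + 1) (limma adjusted p = 0.581). BCL7C was at 142 ± 12.8 CPM in knockout libraries, against 29.3 ± 1.97 CPM in wild-type libraries (SD, n = 3 each), while ARID1A, in the same complexes, was 20.7-fold lower. BICRAL, a subunit of the non-canonical BAF complex, fell by 3.33, with −1.49 under the offsets. Of these 23 genes, 4 rose and 4 fell in the HCC-LM3 knockout (14.0% and 12.9% of all tested genes). BICRA and DPF2 rose by 0.63 and 0.39, and SMARCE1 and PBRM1 fell, at −0.57 and −0.53. With the offsets 2 of the 23 were called higher and 0 lower (9.14% and 8.85% of all tested genes). DPF2 kept its call there (0.31), while the calls of BICRA (0.23, edgeR adjusted p = 0.211), SMARCE1 (−0.23, edgeR adjusted p = 0.0802) and PBRM1 (−0.23, edgeR adjusted p = 0.23) ended. On log2(TPM + 1) those of DPF2 (limma adjusted p = 0.432), BICRA and PBRM1 ended. The call of PBRM1 also ended without HCC-LM3 knockout replicate 1 or 3 and without HCC-LM3 wild-type replicate 2 or 3.

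Of 15 other COMPASS subunits and enzymes, which work with the KMT2 proteins, 3 rose and 10 fell in the Huh-7 knockout (31.7% and 43.2% of all tested genes). DPY30, a small core subunit, and CXXC1, a CpG-binding subunit, rose by 0.67 and 0.60, and PAXIP1 and HCFC1 fell, at −2.61 and −2.59. With the offsets these were 0.59 for DPY30, 0.03 for CXXC1, whose call ended, −1.43 for PAXIP1 and −1.39 for HCFC1. With library totals in place of TMM all 15 of the list were called lower, DPY30 and CXXC1 among them, so both rises depended on the scale. KMT2B, the closest relative of KMT2A, rose by 0.52 in the HCC-LM3 knockout, to 81.7 ± 2.67 CPM, against 57.1 ± 1.98 CPM in wild-type libraries (SD, n = 3 each). The same list there had 4 higher and 1 lower (14.0% and 12.9% of all tested genes). The lower gene was PSIP1, a chromatin tether of KMT2A, which fell by 0.62. With the offsets the list had 1 higher and 0 lower (9.14% and 8.85% of all tested genes). The calls of KMT2B (0.12, edgeR adjusted p = 0.194) and PSIP1 (−0.31, edgeR adjusted p = 0.0778) ended with the offsets, as they did on log2(TPM + 1).

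Around SIN3A, 4 of 23 genes of SIN3 and class I histone deacetylase complexes rose and 14 fell in the Huh-7 knockout (31.7% and 43.2% of all tested genes). SAP18, a small SIN3-associated protein, rose by 1.86 to 364 ± 21.6 CPM in knockout libraries, against 100.5 ± 8.77 CPM in wild-type libraries (SD, n = 3 each). BRMS1, another SIN3-associated protein, rose by 1.76, but by 0.64 with the offsets, and its call ended on log2(TPM + 1) (limma adjusted p = 0.108). NCOR1, a long corepressor that binds HDAC3, fell, at −2.76, to 10.3 ± 0.267 CPM in knockout libraries, against 69.6 ± 4.66 CPM in wild-type libraries (SD, n = 3 each). With the offsets SAP18 was at 2.92 and NCOR1 at −0.63. With the offsets the list had 7 higher and 6 lower (34.3% and 24.9% of all tested genes). Of the same 23, 4 rose in the HCC-LM3 knockout, among them FOXK1 at 0.44, and 6 fell, among them SAP30L and OGT at −0.77 and −0.53. The shares of all tested genes there were 14.0% higher and 12.9% lower. The call of FOXK1 ended with the offsets (0.12, edgeR adjusted p = 0.287) and on log2(TPM + 1), and that of SAP30L on log2(TPM + 1) (limma adjusted p = 0.121). That of OGT (edgeR adjusted p = 0.0475) ended with the offsets (−0.30, edgeR adjusted p = 0.062) and when any library other than HCC-LM3 wild-type replicate 1 was left out, and its adjusted p was 4.18e-07 to 0.163 over the alternatives. Of 15 other chromatin remodelers, edgeR called 0 higher and 15 lower in the Huh-7 knockout (0 higher at an unadjusted p under 0.05, and 0 by DESeq2), where 43.2% of all tested genes were called lower. With the offsets 3 were called higher and 10 lower (34.3% and 24.9% of all tested genes). CHD7 and BPTF led the fall at −4.41 and −3.80, or −2.37 and −1.58 with the offsets. CHD7 was at 2.44 ± 1.69 CPM in knockout libraries, against 53.4 ± 5.03 CPM in wild-type libraries (SD, n = 3 each). Among these remodelers CHD3 rose by 0.30 in the HCC-LM3 knockout and SMARCA5 fell by 0.51. Both calls ended with the offsets and without HCC-LM3 knockout replicate 1. That of CHD3 also ended without HCC-LM3 wild-type replicate 2, and that of SMARCA5 without HCC-LM3 knockout replicate 3 or HCC-LM3 wild-type replicate 3.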

How the data were processed

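RNA was sequenced from cultured HCC-LM3 and Huh-7 cells, with and without METTL5. Per the labels' protocols, total RNA was extracted with TRIzol and 1 µg was used per library, with sequencing on an Illumina NovaSeq 6000. Per the file headers, the deposited table gives each gene's expected count and TPM in every library. These expected counts, as the authors deposited them, are estimated counts without normalization, and in each library 7.49% to 13.3% of them are not whole. The TPM values the authors deposited are per length and sum to 977632 to 998831 a library. The submitters' processing notes name Bowtie 0.12.2 and builds of the mouse genome (mm8, mm9), at odds with the human gene identifiers. Not given in the sources used here were the counting tool, the strand setting, the human build and the annotation, so genes with overlapping neighbours or near-identical copies are uncertain.

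The counts, rounded to whole numbers, went into edgeR 4.0.16 (R 4.3.3). Its filterByExpr left 16537 genes, TMM set the scaling, and 1 quasi-likelihood fit (robust) held all 12 libraries with a mean for each of the 4 groups and 8 residual degrees of freedom. Two-sided p-values were adjusted over all tested genes by Benjamini and Hochberg, with a call under 0.05. An exact permutation test of 3 libraries against 3 cannot go under p = 0.1. The procedure was tested on simulated data. The offsets for GC content and gene length are smooth functions fitted per library (mgcv 1.9.3). GENCODE 29 (GRCh38) gave coordinates and GC content and held 99.54% of the gene identifiers, and RefSeq gave the promoters. Implied transcript length was the count divided by the TPM, scaled in each library by the median of the same ratio per base in single-transcript genes of at least 2000 bases, 100 counts and 1 TPM.

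The 10 genes and the partner lists were chosen with earlier results of these data known. From each partner list the rule named up to 2 called genes per direction and knockout with the largest log2 fold change and a mean of at least 5 CPM, and not all of these are printed. The alternatives were DESeq2 1.42.0 size factors and its Wald test, library totals, limma-voom (limma 3.58.1), no filter and a filter of 1 CPM in 3 libraries, a separate fit for each line, a block for the replicate number, the offsets, an adjusted p under 0.01, log2(TPM + 1) and leaving out each library in turn.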

Additional observations from a re-analysis of the deposited data

Results flagged for a closer look

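The knockout effect in HCC-LM3 minus that in Huh-7 is given here as a description, since the 10 names may have been chosen on these values. On the log2 scale it was 5.10 for SIN3A, 4.84 for EP300, 4.55 for ARID1A, 4.17 for KMT2C, 4.13 for NCOA6, 3.98 for CREBBP, 3.84 for KMT2D, 3.72 for KMT2A, 2.79 for SMARCA4 and 2.03 for ARID1B. A gene was listed where edgeR's test of the difference passed, as it did in 61.6% of all tested genes in either direction, and the listing supports nothing about the 10. With GC and length offsets the difference for ARID1B was 0.19. Over the whole table the medians of gene length classes lay between −0.08 and 0.06 in the HCC-LM3 knockout and between −2.48 and 1.42 in the Huh-7 knockout.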

How the results depend on the processing

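In the Huh-7 knockout all 230 of 230 values recomputed for the 10 genes kept their direction and their call, and the count of called genes was 10 to 10 when a library was left out. Of 220 values of the difference between the lines, 218 kept both, and ARID1B lost its call with the offsets (0.19). The count stayed at 10 to 10 when a library was left out. Because the names may have been chosen on these values, neither tally is read as support for a change in the 10. In the HCC-LM3 knockout 201 of 230 values kept direction and call, and for the untreated lines 176 of 220.

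The count of called genes in the HCC-LM3 knockout was 2 with library totals, 2 with the offsets and 2 with the replicate block and the offsets together, and 1 to 2 when a library was left out. For the untreated lines it was 6 to 8 when a library was left out. Replicate numbers did not pair the libraries: same-numbered deviations correlated at −0.116, 0.232 and −0.409 in HCC-LM3 and at −0.032, −0.046 and 0.093 in Huh-7. With the replicate block the counts were 1 in the HCC-LM3 knockout, 10 in the Huh-7 knockout, 10 for the difference between the lines and 6 for the untreated lines.

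Partner genes called higher in the HCC-LM3 knockout numbered 7 with library totals and 10 with the offsets, and those called lower 26 and 6. In the Huh-7 knockout 25 were higher with DESeq2 size factors and 7 with library totals. In the HCC-LM3 knockout direction turned, with library totals, for CREBBP (−0.05), EP300 (−0.05), KMT2A (−0.11), KMT2C (−0.01), KMT2D (−0.02) and SIN3A (−0.13). With the offsets, alone or with the replicate block, it turned for ARID1A (−0.13), CREBBP (−0.16), EP300 (−0.03) and KMT2D (−0.22). On log2(TPM + 1) it turned for ARID1A (−0.03), CREBBP (−0.09), EP300 (−0.02), KMT2A (−0.06) and SIN3A (−0.20). Leaving out a library gave −0.07 to 0.12 for KMT2A and −0.04 to 0.09 for SIN3A. Between the untreated lines it turned for ARID1A (0.42 with library totals, 0.09 with no filter, 0.11 with the replicate block, 0.01 with limma-voom, 0.66 on TPM, −0.07 to 0.14 when a library was left out), ARID1B (0.10 on TPM), KMT2A (0.11 with library totals, 0.43 on TPM), KMT2D (0.28 with library totals, 0.07 with the replicate block, 0.33 on TPM, −0.27 to 0.21 when a library was left out) and NCOA6 (−0.003 with DESeq2 size factors and its Wald test, −0.16 with the offsets, −2e-05 to 0.15 when a library was left out). The cause was not tested. Low counts limit SIN3A most, with 4 to 14 counts a library in the Huh-7 knockout.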
